A study of Oryza sativa with 24 samples.

Results

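The heat shock transcription factors (HSFs) and heat shock proteins (HSPs) of rice (Oryza sativa ssp. japonica) were described across 5 stages of male gametophyte development and 3 sporophytic tissues. A probe set, the group of short probes that measures 1 transcript on the Affymetrix rice array, was taken as a member where the array annotation gave it 1 gene and that gene's RefSeq symbol or synonym began with HSF or HSP followed by a number, a hyphen or a class letter. This gave 64 probe sets of 43 genes, out of 57258 probe sets analysed and out of 49 genes with such a name. The 6 genes without a probe set mapped to them alone were HSP16.9C, HSP18.9, HSP19.0, HSFA6A, HSFB4C and HSFC2B. Small HSPs had 26 probe sets (19 genes), HSP81 proteins, the plant HSP90 family, 8 probe sets (3 genes), the HSP100 class 1 probe set (HSP101, also named CLPB1) and the factors 29 probe sets (20 genes). No gene in the RefSeq table carried an HSP70 name, so that class was empty.

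The pollen stages were uninucleate microspores (UNMs), bicellular pollen (BCP), immature tricellular pollen (TCP), mature pollen grains (MPGs) and in vitro germinated pollen grains (GPGs), and the sporophytic tissues were callus, leaf and root, each with 3 arrays of biological replicates and no genetic or heat treatment. UNMs, BCP and TCP were released from crushed anthers in mannitol at 4°C, with an added Percoll gradient for BCP. MPGs were shaken from flowering panicles, and GPGs were such grains held about 10 min in liquid medium at 30°C. By the study's counts BCP was less pure than UNMs and TCP, and not all grains in the GPG samples had germinated. Callus grew on 2,4-D medium, roots came from seedlings, and leaves were flag leaves at grain filling by the sample labels but seedling leaves by the study's methods. Stage, handling and temperature at collection cannot be told apart in this design.

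HSPs are molecular chaperones. Small HSPs hold partly unfolded proteins without using ATP, HSP90 proteins complete the folding of kinases, receptors and other clients, and HSP100 proteins such as HSP101 pull proteins out of aggregates. HSFs bind heat shock elements in the promoters of these genes: class A factors carry an activation domain, whereas class B and C factors lack one and several class B factors repress transcription. Pollen is among the most heat-sensitive stages of the plant life cycle, and many HSPs are also made during normal development, without heat.

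Signals are the deposited values, for which the authors had brought all arrays to a common trimmed mean. The fits used log2(signal + 50), which understates the change of dim probe sets, and a call needed an adjusted p below 0.05 together with a log2 difference of 1 or more. Of the 64 members 63 passed the filter of a signal of 100 on 3 or more arrays, and 1 of the 3 probe sets of HSFA2A did not. All 6 MPG and GPG arrays had a higher median signal (146.9 to 197.9) than the other 18 arrays (51.3 to 105.2), and brighter hybridisation controls (8989 to 17347 against 1458 to 4228). Over the 47589 probe sets that were tested, the median difference between TCP and MPGs was 0.55 on the log2 scale as deposited, -0.09 with equal medians, 0.08 after quantile normalization and -0.58 when arrays were scaled to their hybridisation controls. Counts of rises from TCP to MPGs are therefore given under each scaling. The marker genes bore out the tissue labels: 3 leaf markers summed to 79891 to 124825 in leaf and at most 2068 elsewhere, 3 root markers to at least 22867 in root and at most 912 elsewhere, and 2 late pollen markers to at least 336789 in MPGs and at most 340 in sporophytic tissues.

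The root array of replicate 3 stood apart from the other root arrays in these genes. On it 14 of 63 member probe sets were at least 2-fold above the mean of the other root arrays and 3 were at least 2-fold below, against 5.37% and 4.10% of all tested probe sets. The corresponding count of higher members was 0 on root arrays 1 and 2. HSFA2A (Os.2292.3.S1_x_at) gave 163, 200 and 1178 on root arrays 1 to 3, HSFB2C (Os.11941.1.S1_at) gave 350, 331 and 1900, and HSP17.9B gave 946, 986 and 3667. On the same array the root markers moved in opposite directions, as in the iron transporter IRT1 (604, 614 and 12698) and the silicon transporter LSI2 (5656, 6247 and 1026). What set this array apart was not tested. Counts that involve root are given with and without it, the calls that changed without it are named, and called differences that moved by over 0.3 on the log2 scale are given both ways.

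**Figure D1:**
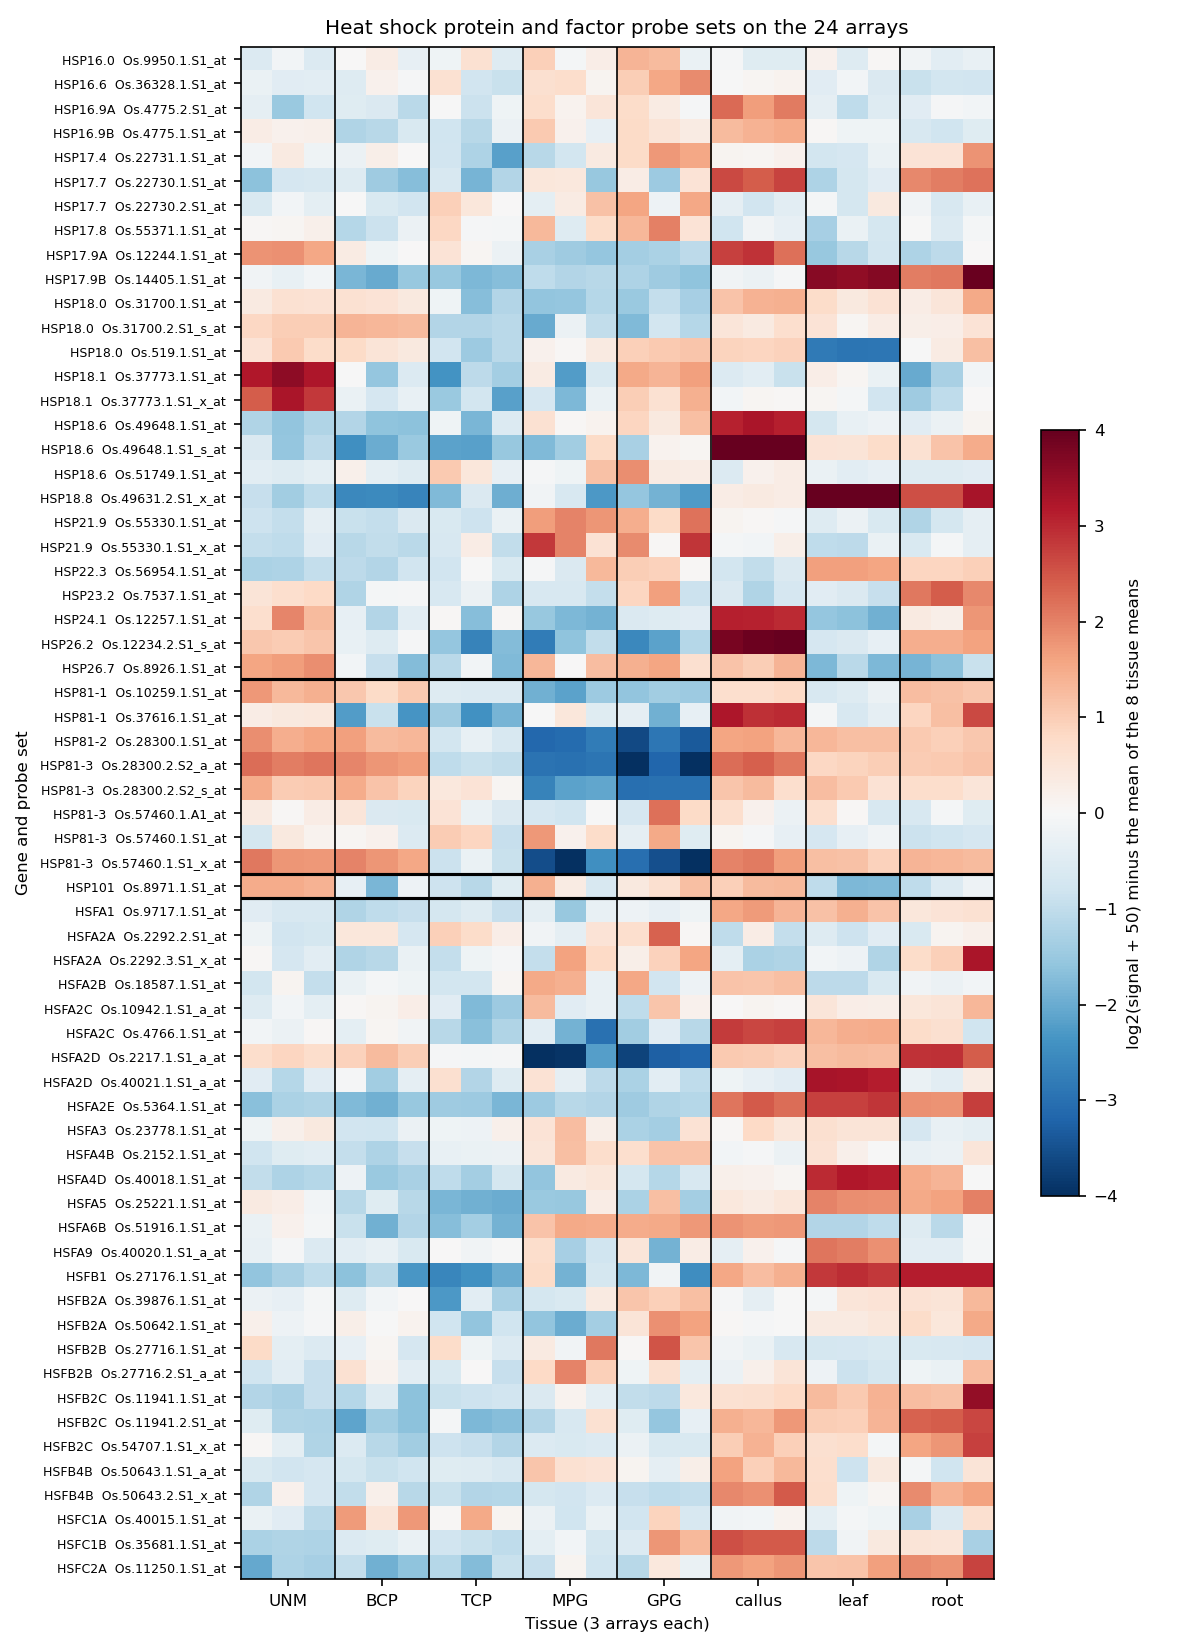
Each row is 1 of the 63 member probe sets that passed the filter and each column 1 of the 24 arrays; the colour gives log2(signal + 50) minus the mean of the 8 tissue means of that row, and thick lines part small HSPs, HSP81 proteins, HSP101 and factors. The bright HSP81 probe sets are lowest on the MPG and GPG arrays, many factors are low on all pollen arrays, and the last root array is often above the other root arrays.

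Nearly all members varied among the 8 tissues: 60 of 63 were called by the moderated F test with a range of tissue means of at least 1 on the log2 scale, where 90.3% of all tested probe sets were called as well. Callus was the tissue of the highest mean for 19 of the 63 members, against 9.02% of all tested probe sets. GPGs were it for 13 and MPGs for 5 members, against 23.9% and 23.7% of all tested probe sets, and TCP was it for none. In 11 of the 19 callus cases the 3 callus arrays lay above all 21 other arrays, but in 1 of the 13 GPG cases and none of the 5 MPG cases did the arrays of the stage do so. The share of all tested probe sets with such a separation was not computed. Replicates also spread more in late pollen: on single MPG and GPG arrays 9.1% to 17.7% of all tested probe sets were at least 2-fold above the mean of the other arrays of the stage. On callus arrays this share was 0.214% to 0.551%.

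Between stages, members fell more often than they rose until TCP. From UNMs to BCP 1 of 63 probe sets was called higher and 12 lower, against 6.11% and 8.19% of all tested probe sets. From BCP to TCP 1 was higher (10.2% of all) and 13 were lower (12.9% of all), a share of lower calls that was nearer to the background. From TCP to MPGs 16 were higher and 8 lower, close to the 27.0% and 11.9% of all tested probe sets. From MPGs to GPGs 5 were higher and 2 lower, against 3.00% and 4.67%. Over all pollen arrays against all sporophytic arrays none was called higher and 27 were called lower, against 20.8% and 20.7% of all tested probe sets, and the median change of the members was -0.67 against 0.39 for all. At an unadjusted p under 0.05, 52 of the 63 members differed between pollen and sporophytic tissues in either direction, and so did 78.8% of all tested probe sets. Without root replicate 3 the counts against sporophytic tissues were 2 higher (HSP18.1 and HSP26.7, 1.09 each) and 26 lower (HSP24.1 went from -1.14 to -0.98), and without MPG replicate 2 they also included 2 higher. Neighbouring stage comparisons share the arrays of a stage, so their values are not independent.

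**Figure D2:**
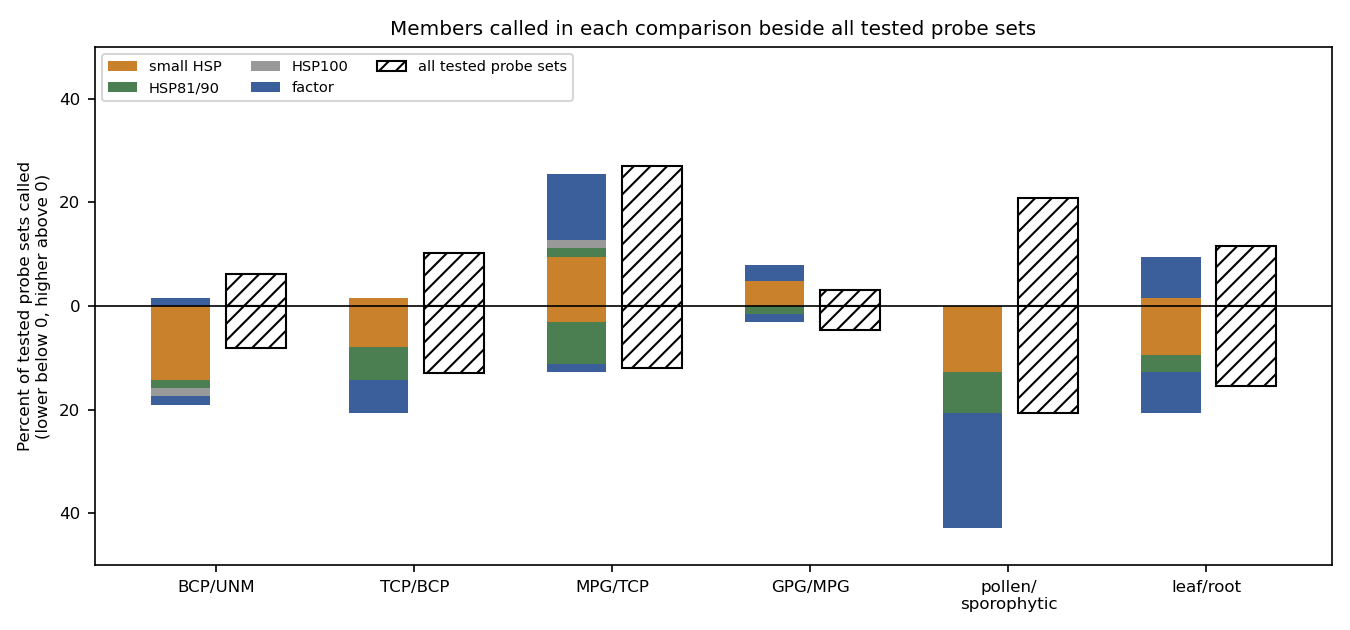
Percent of tested probe sets called higher (above 0) or lower (below 0) in each comparison; stacked bars are the 63 tested members, coloured by class, and hatched bars all 47589 tested probe sets. Against sporophytic tissues 27 members were lower in pollen and none higher, while from TCP to MPGs the member bars are close to the hatched bars.

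Under the other scalings the member counts held from UNMs to TCP and shifted at pollen maturity. With equal medians, quantile normalization and hybridisation control scaling, 5, 8 and 1 of the 16 rises from TCP to MPGs were still called, and under the last of these 5 of the 16 turned to a lower value: those of HSFA4B, HSFB2A (Os.39876.1.S1_at), HSP101, HSP18.0 (Os.519.1.S1_at) and HSP18.6 (Os.49648.1.S1_at). The split of higher to lower calls was 16 to 8 as deposited, 5 to 10, 8 to 7 and 1 to 16 under these scalings, in that order. All tested probe sets shifted likewise: of their calls at this step 69.5% were higher as deposited and 22.8%, 45% and 3.9% under these scalings. Of the 27 members lower in pollen than in sporophytic tissues, all 27 were called under each of the 3. These scalings moved pollen down as a whole, so that keeping lower calls is a weak check. The median difference of all tested probe sets was 0.388 as deposited and -0.174, 0.144 and -0.705 under them. Their lower calls went from 9833 to 13757, 10172 and 18792. From MPGs to GPGs 4, 5 and 1 of the 5 rises and 0, 1 and 0 of the 2 falls were still called.

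Among small HSPs the largest change between stages was that of HSP18.1, a class I cytosolic small HSP. Its probe set Os.37773.1.S1_at gave 2999, 3967 and 3067 in UNMs, 284, 65.3 and 181 in BCP, 14.1, 112 and 79.8 in TCP, 372, 20.6 and 170 in MPGs and 909, 808 and 1004 in GPGs. In callus it gave 177, 202 and 131, in leaf 355, 307 and 231, and in root 32.8, 86.6 and 261. The UNM arrays lay above all other arrays, the GPG arrays came next without overlap with any remaining tissue, and all else was low. The change into BCP was -4.02 on the log2 scale (SE 0.53, limma adjusted p = 7.27e-06) and the rise into GPGs 2.35 (SE 0.53, adjusted p = 0.00745). The rise was called as deposited, with equal medians and after quantile normalization, but not with hybridisation control scaling (1.51, adjusted p = 0.225). A second probe set with probes that can match related transcripts, Os.37773.1.S1_x_at, gave 1684, 3106 and 2260 in UNMs, 219, 153 and 212 in BCP, 155, 43.9 and 220 in MPGs and 586, 446 and 828 in GPGs, with the same 2 calls.

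**Figure D3:**
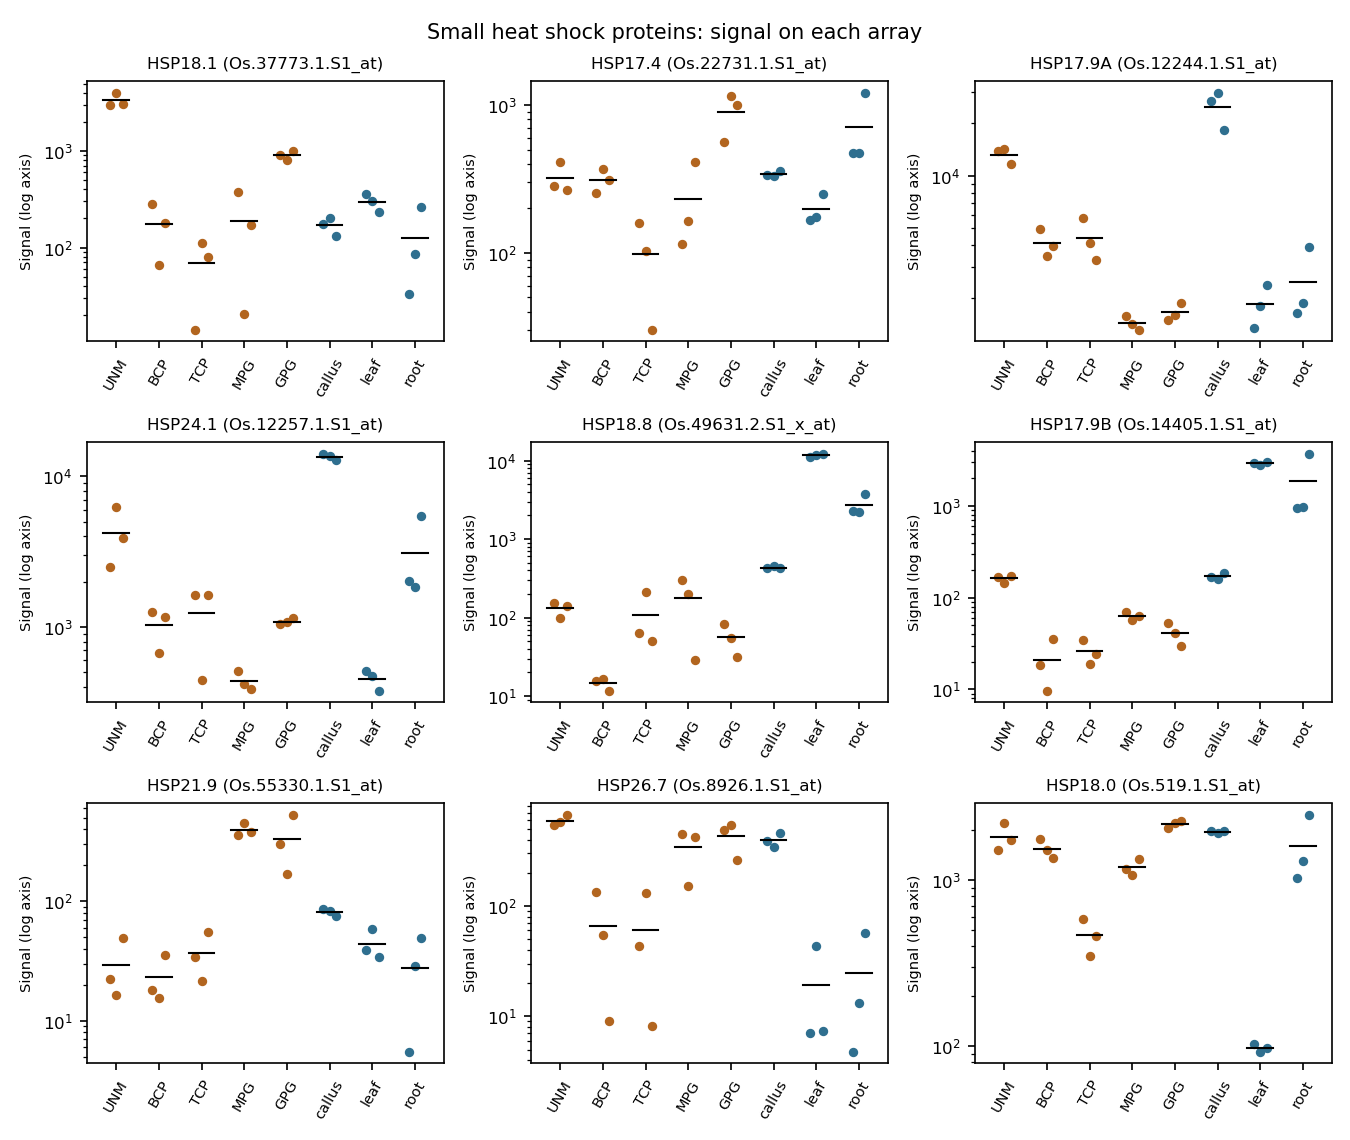
Signal on each array (points, log axis) and tissue mean (bar) for 9 small HSP probe sets, with pollen stages in orange and sporophytic tissues in blue, 3 arrays each. HSP18.1 is highest in UNMs and next in GPGs, HSP17.9A and HSP24.1 in callus and UNMs, HSP18.8 and HSP17.9B in leaf and root, and HSP21.9 in MPGs and GPGs.

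In all, 9 of the 26 small HSP probe sets fell from UNMs to BCP and none rose, against 8.19% and 6.11% of all tested probe sets. HSP26.7, the small HSP of the chloroplast, fell by 2.62 (SE 0.44, adjusted p = 0.000138), from a mean of 593 to 65.7, and rose again by 1.86 in MPGs (adjusted p = 0.0018), to 341. HSP17.9A, another class I protein, gave 13847, 14183 and 11681 in UNMs, 4952, 3477 and 3942 in BCP, 5747, 4142 and 3300 in TCP, 1571, 1420 and 1319 in MPGs and 1490, 1608 and 1865 in GPGs. Its callus arrays (26640, 29643 and 18302) were the highest, and it changed by -1.68 into BCP and by -1.55 into MPGs (SE 0.30 each). Quantile normalization brought the latter change to -0.94, under the fold needed for a call. The others that fell into BCP were HSP24.1, HSP17.9B, HSP18.8, HSP26.2 and HSP16.9B, with changes of -1.93, -1.59, -1.48, -1.37 and -1.21.

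Markers of the tapetum and of cell division moved in the same direction at this step. The tapetum and anther wall list (5 genes with a probe set, summed signal 20801 to 22956 in UNMs and 8650 to 9012 in BCP) fell, with the tapetum gene RTS at 12273 to 13258 in UNMs, 809 to 1336 in BCP and under 64 in TCP. The summed list is not specific to the anther, as it stood at 11292 to 11360 in leaf, 9016 to 9230 in callus and 5336 to 6948 in root. TDR, another gene of this list, was at most at 124 in UNMs, so the listed genes differed in level. The dividing cell list fell from 21373 to 22777 in UNMs to 6681 to 6995 in BCP. The study reports key cell cycle transcripts as accumulating in UNMs, so this list does not by itself mark other cells. The dividing cell list stood at 14682 to 17375 in callus, the other tissue where several small HSPs were high, and at 10499 to 12087 in root. Of the 26 small HSP probe sets, 9 had their highest mean in callus and 1 in root. The part of tapetum cells or of cell division in the small HSP signals was not tested. In bulk RNA fewer cells of a type and less RNA per cell cannot be told apart.

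From BCP to TCP 5 of the 26 small HSP probe sets fell and 1 rose, against 12.9% and 10.2% of all tested probe sets. The 3 probe sets of HSP18.0, a class II cytosolic small HSP, were all lower in TCP: Os.31700.2.S1_s_at went from 1292, 1264 and 1186 to 183, 182 and 198 (it fell by 2.45, SE 0.32, adjusted p = 3.84e-06), and the other probe sets changed by -1.65 and -1.52. After TCP they parted, with Os.519.1.S1_at back at 1171, 1079 and 1348 in MPGs and 2055, 2199 and 2286 in GPGs, while Os.31700.1.S1_at stayed at 21.5 to 60.6 in both. HSP26.2 (Os.12234.2.S1_s_at) went from 296, 248 and 360 in BCP to 96.9, 17.3 and 79.7 in TCP, a change of -1.68 (SE 0.38, adjusted p = 0.00183). HSP18.8 was the 1 member called higher, from 15.4, 16.2 and 11.7 to 63.3, 212 and 50.4, a rise of 1.16 (SE 0.41, adjusted p = 0.0386). That call was lost with an offset of 100 and when any 1 of the BCP arrays or TCP replicate 2 was left out. HSP17.4 fell by 1.39.

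In mature pollen HSP21.9 rose most among small HSPs. Its probe set Os.55330.1.S1_at gave 34.0, 21.4 and 55.4 in TCP, 357, 453 and 380 in MPGs and 300, 169 and 522 in GPGs, and at most 86.2 in the sporophytic tissues. All 6 MPG and GPG arrays thus lay above the other 18. The rise from TCP to MPGs was 2.37 (SE 0.29, adjusted p = 1.31e-06), and 0.94 with hybridisation control scaling, which was not called. The probe set Os.55330.1.S1_x_at was less even, with 28.8, 100 and 12.1 in TCP and 818, 440 and 132 in MPGs, and rose by 2.24 (SE 0.54). HSP17.9A and HSP24.1 fell at this step, the latter from 1625, 443 and 1619 to 512, 422 and 386 (-1.19 on the log2 scale, adjusted p = 0.0291), a call lost in each of 4 fits that left out 1 TCP or MPG array.

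On germination 3 of the 26 small HSP probe sets rose and none fell, against 3.00% and 4.67% of all tested probe sets. Besides the pair of HSP18.1, HSP17.4 rose by 1.85 (SE 0.40, adjusted p = 0.00581), with GPG arrays at 561, 1152 and 1005 above MPG arrays at 116, 165 and 414. The count of members called higher in GPGs was 8 in place of 5 without GPG replicate 1, and the count called lower 1 in place of 2 without MPG replicate 2.

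Against sporophytic tissues 8 of the 26 small HSP probe sets were lower in pollen and none was higher, against 20.7% and 20.8% of all tested probe sets. HSP18.8 (Os.49631.2.S1_x_at) gave 11206, 11744 and 12056 in leaf, 2280, 2243 and 3750 in root and 427, 448 and 425 in callus, and at most 302 on any pollen array. Averaged over stages and tissues it differed in pollen by -4.29 on the log2 scale (SE 0.21, adjusted p = 9.36e-14). HSP17.9B gave 2951, 2792 and 3053 in leaf and 946, 986 and 3667 in root, against at most 174 in pollen and 186 in callus, so that the difference of -3.29 (SE 0.17, adjusted p = 2.33e-13) came from leaf and root. HSP18.6 and HSP26.2 were highest in callus, where HSP18.6 (Os.49648.1.S1_s_at) had a mean of 7336 and HSP26.2 one of 6822, against 692 and 1159 in root and 466 and 249 in leaf. The probe set Os.49648.1.S1_at of HSP18.6 was called lower in pollen too (-1.36), but through callus alone (mean 2633). Its means in MPGs (317) and GPGs (499) were above those in leaf (180) and root (216). HSP17.7 (Os.22730.1.S1_at) was high in both callus (1883, 1643 and 1983) and root (1139, 1248 and 1370), and at most 407 in pollen.

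Leaf and root differed in 7 small HSP probe sets, 1 higher and 6 lower in leaf. Os.519.1.S1_at of HSP18.0 gave 102, 92.6 and 97.1 in leaf against 1030, 1299 and 2458 in root (a difference of -3.39, SE 0.26, adjusted p = 9.39e-10). HSP17.7 was lower in leaf (-2.86), with leaf arrays at 82.0, 141 and 178. HSP23.2, HSP24.1, HSP26.2 and HSP17.4 were also lower in leaf, with differences of -2.80, -2.47, -2.02 and -1.52, and HSP18.8 was higher by 2.10 (SE 0.41). Without root replicate 3 the differences of HSP18.0, HSP24.1 and HSP17.4 were -3.03, -1.98 and -1.09, all still called. Over all members 6 were higher in leaf and 13 lower, against 11.6% and 15.4% of all tested probe sets. Without root replicate 3 the counts were 6 and 11, of which 4 and 11 were the same probe sets: HSP17.9B (1.55) and HSP18.1 (1.69) became higher in leaf, and HSFA2A, HSFA2C (Os.4766.1.S1_at, from 1.23 to 0.74), HSFA3 and HSFB2C (Os.11941.2.S1_at) were no longer called.

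Small HSP genes that lie close together were not all highest in the same tissue. In the order of genes in the RefSeq assembly ASM3414082v1, HSP16.6, HSP17.9B, HSP16.9C, HSP16.9A and HSP16.9B form a run on chromosome 1. The highest mean was in GPGs for HSP16.6 (414), in leaf for HSP17.9B (2932) and in callus for HSP16.9A (625) and HSP16.9B (276). On chromosome 3 HSP17.4, HSP18.1 and HSP17.7 follow each other, with HSP17.9A a few places before them. The highest mean was in callus for HSP17.9A (24862) and HSP17.7 (Os.22730.1.S1_at, 1836), in GPGs for HSP17.4 (906) and in UNMs for HSP18.1 (3344). Genes of such a run can be close in sequence, so a probe set may also take up signal from its neighbours.

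The remaining small HSP probe sets had highest tissue means from 103 to 585. HSP16.0, HSP17.8, HSP22.3 and the second probe set of HSP17.7 (Os.22730.2.S1_at) had highest tissue means of 108, 355, 355 and 148, in GPGs except for HSP22.3, which was highest in leaf. HSP23.2 was highest in root (585). The third probe set of HSP18.6 (Os.51749.1.S1_at) reached a mean of 103 in GPGs, where its arrays gave 224, 44.2 and 42.7, and had a mean of 26.1 in callus, the tissue in which the others were highest.

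The HSP81 family declined through pollen development. HSP81-2 gave 30640, 23111 and 25278 in UNMs, 26767, 20546 and 21511 in BCP, 5118, 6946 and 5401 in TCP, 916, 955 and 1168 in MPGs and 652, 1097 and 779 in GPGs. It stood at 16483 to 26064 in the sporophytic tissues, so that the TCP, MPG and GPG arrays lay below all others. It fell by 1.97 from BCP to TCP (SE 0.22, adjusted p = 3.09e-07) and then fell by 2.46 from TCP to MPGs (SE 0.22, adjusted p = 1.11e-08). Neither UNMs against BCP nor MPGs against GPGs passed the test for this probe set.

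The 3 bright probe sets of HSP81-3, which lies close to it on chromosome 9, followed the same course. Os.28300.2.S2_a_at gave 16936, 14873 and 13962 in BCP, 2090, 2285 and 2151 in TCP, 515, 503 and 529 in MPGs and 115, 434 and 113 in GPGs. It fell by 2.78 into TCP (SE 0.29, adjusted p = 1.28e-07), changed by -1.98 into MPGs and by -1.27 into GPGs (SE 0.29, adjusted p = 0.00745), the last of these being the 1 HSP81 call on germination, which was lost with equal medians (adjusted p = 0.0847) and with hybridisation control scaling. Os.57460.1.S1_x_at gave 25288, 21597 and 18612 in BCP, 3444, 5212 and 3426 in TCP and 496, 137 and 1110 in MPGs, with changes of -2.44 and -3.02. Os.28300.2.S2_s_at, whose probes can match more than 1 transcript, fell later: it gave 42757, 33420 and 28051 in BCP, 20141, 22266 and 15963 in TCP and 2330, 3420 and 3531 in MPGs, a change of -2.64 into MPGs (SE 0.25, adjusted p = 2.69e-08). The remaining HSP81-3 probe sets, Os.57460.1.A1_at and Os.57460.1.S1_at, were dim, with highest tissue means of 297 in GPGs and 159 in MPGs.

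**Figure D4:**
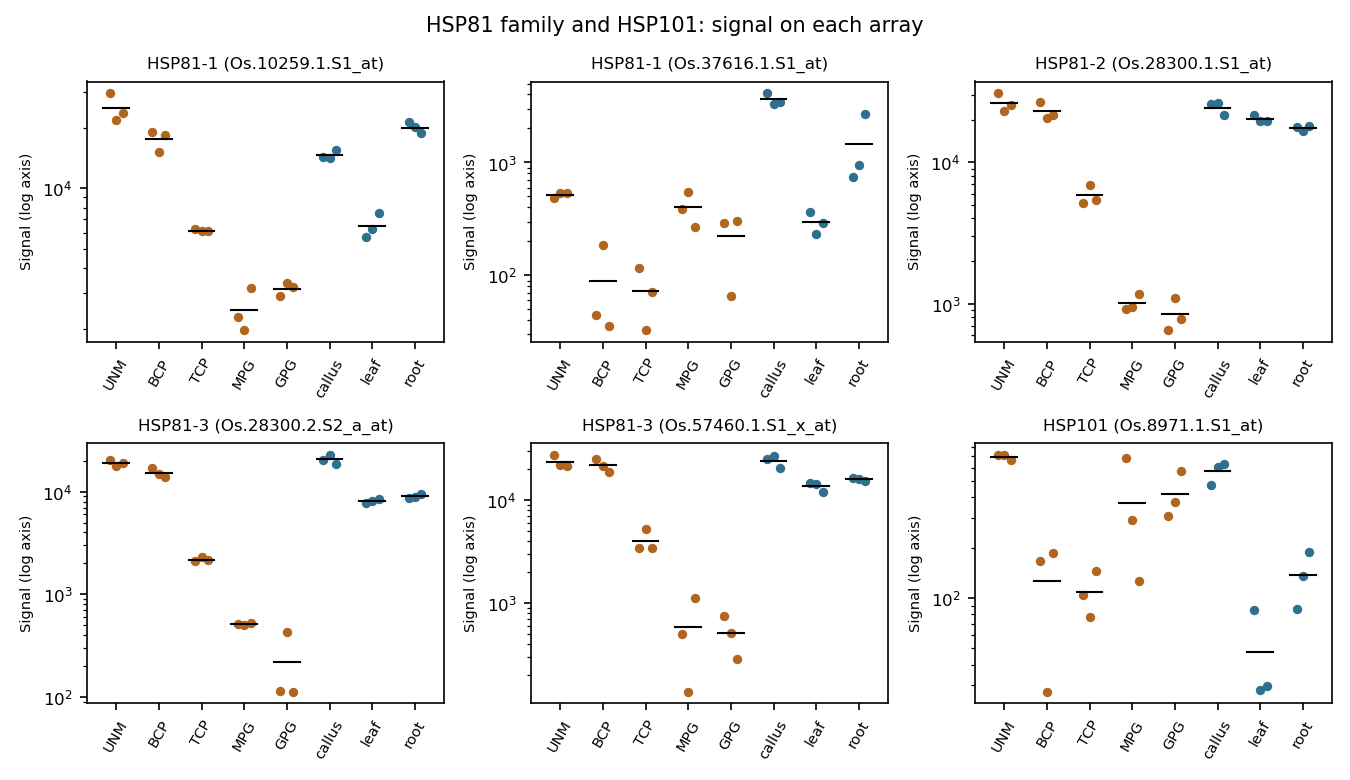
Signal on each array (points, log axis) and tissue mean (bar) for 5 HSP81 probe sets and HSP101, pollen stages in orange and sporophytic tissues in blue, 3 arrays each. The bright HSP81 probe sets drop at TCP and again at MPGs, whereas the second HSP81-1 probe set is highest in callus. HSP101 is high in UNMs, callus and GPGs, with MPG arrays spread from the level of TCP to that of UNMs.

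The 2 probe sets of HSP81-1 differed. Os.10259.1.S1_at gave 29647, 21855 and 23775 in UNMs and 18952, 15217 and 18332 in BCP, and then 6256, 6105 and 6116 in TCP and 2292, 1970 and 3202 in MPGs. It changed by -1.49 and -1.32 at these last steps (SE 0.20 each), and the change into MPGs was -0.80 after quantile normalization, which was not called. It was lower in leaf (5701, 6267 and 7520) than in root (21234, 20066 and 18754) (-1.62, SE 0.20, adjusted p = 1.48e-06). Os.37616.1.S1_at gave 486, 531 and 537 in UNMs, 44.5, 186 and 35.4 in BCP, 115, 32.8 and 71.1 in TCP and 384, 547 and 267 in MPGs. It fell by 2.20 into BCP (SE 0.47, adjusted p = 0.00144) and rose by 1.88 into MPGs (SE 0.47, adjusted p = 0.00266), the latter not called with equal medians (1.03, adjusted p = 0.0673). Its callus arrays gave 4094, 3320 and 3430, its leaf arrays 365, 235 and 291 and its root arrays 743, 957 and 2694, and it was lower in leaf than in root (-1.92, and -1.38 without root replicate 3, adjusted p = 0.0259). Over all pollen against sporophytic arrays 5 of the 8 HSP81 probe sets were lower, with differences from -1.38 to -2.31, against 20.7% of all tested probe sets. For HSP81-2 and the bright HSP81-3 probe sets this came from TCP, MPGs and GPGs. Their UNM means were 26343 for HSP81-2 and 19135, 34817 and 23488 for HSP81-3, and each of them was highest in UNMs or callus. With tissue means taken over 8 tissues, the correlation on the log2 scale between the HSP81-1 probe sets was 0.36, a description over few points.

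HSP101, the disaggregating chaperone needed for acquired thermotolerance in Arabidopsis, gave 714, 715 and 668 in UNMs, 166, 27.6 and 186 in BCP, 105, 76.8 and 145 in TCP, 688, 291 and 126 in MPGs and 309, 373 and 575 in GPGs. Its sporophytic arrays gave 475, 604 and 628 in callus, 84.9, 28.1 and 29.8 in leaf and 85.9, 135 and 189 in root. The UNM arrays did not overlap with BCP or TCP, and MPG arrays spread from the level of TCP to that of UNMs. The change into BCP was -2.24 (SE 0.44, adjusted p = 0.000624). The rise into MPGs was 1.18 (SE 0.44, adjusted p = 0.0325), but -0.11 with hybridisation control scaling, and it was also lost under equal medians, under quantile normalization and without TCP replicate 1 or 2 or MPG replicate 1 or 2. Of the changes into TCP and GPGs and of the difference between leaf and root (-0.95, SE 0.44, adjusted p = 0.113) none passed. Pollen against sporophytic tissues gave 0.51 (SE 0.23, adjusted p = 0.0443), below the fold needed for a call, and -0.56 with hybridisation control scaling.

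Of the 28 tested factor probe sets, 14 were lower in pollen than in sporophytic tissues and none was higher, against 20.7% and 20.8% of all tested probe sets. HSFA2E gave 18.5, 41.4 and 46.2 in UNMs and at most 51.3 on every pollen array, but 927, 1166 and 993 in callus, 1412, 1413 and 1559 in leaf and 725, 715 and 1445 in root. It was lower in pollen, with a difference of -3.83 on the log2 scale (SE 0.13, adjusted p = 8.34e-17). HSFB1, a class B factor that acts as a repressor of heat shock genes in Arabidopsis, gave 1073, 844 and 978 in callus, 2688, 2893 and 2661 in leaf and 3353, 3369 and 3311 in root. On pollen arrays it stayed at most at 598, with 598, 54.1 and 188 in MPGs, with a difference of -3.95 (SE 0.27, adjusted p = 2.38e-11). HSFC2A, the 3 probe sets of HSFB2C, HSFA4D, HSFA5, HSFB4B (Os.50643.2.S1_x_at), HSFA1 and HSFC1B were lower in pollen too, with differences from -1.13 to -2.74. For HSFC1B callus alone was high (mean 797). Its leaf and root arrays gave 11.5 to 166, below its GPG mean of 278. HSFA1, whose relatives in Arabidopsis and tomato act as master regulators of the heat response, differed by -1.77 (SE 0.13). It had stage means between 651 and 1179 in pollen and tissue means between 2043 and 4153 in sporophytic tissues.

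The records of HSFA2C and HSFA2D also carry names of acireductone dioxygenases (ARD), enzymes of methionine salvage, so the annotation does not settle which transcript their 4 probe sets read. The 2 probe sets of each gene differed: Os.2217.1.S1_a_at of HSFA2D was highest in root (10505, 10564 and 7595) and went from 1333, 1288 and 1327 in TCP to 38.9, 42.8 and 257 in MPGs, a change of -3.33 (SE 0.32, adjusted p = 4.98e-08), whereas Os.40021.1.S1_a_at was at 1435, 1418 and 1301 in leaf and at most 186 in pollen, callus and root. The second was higher in leaf than in root by 3.36 (SE 0.44, adjusted p = 2.19e-06). For HSFA2C, Os.4766.1.S1_at was highest in callus (mean 4289), and Os.10942.1.S1_a_at went from 157, 170 and 192 in BCP to 96.4, 9.6 and 23.5 in TCP (a change of -1.37, adjusted p = 0.0279), a call lost without each BCP array, without TCP replicate 2 or 3 and with an offset of 100. Without these 4 probe sets 24 members were lower in pollen than in sporophytic tissues and none higher, 11 fell from BCP to TCP, and 15 rose and 7 fell from TCP to MPGs.

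**Figure D5:**
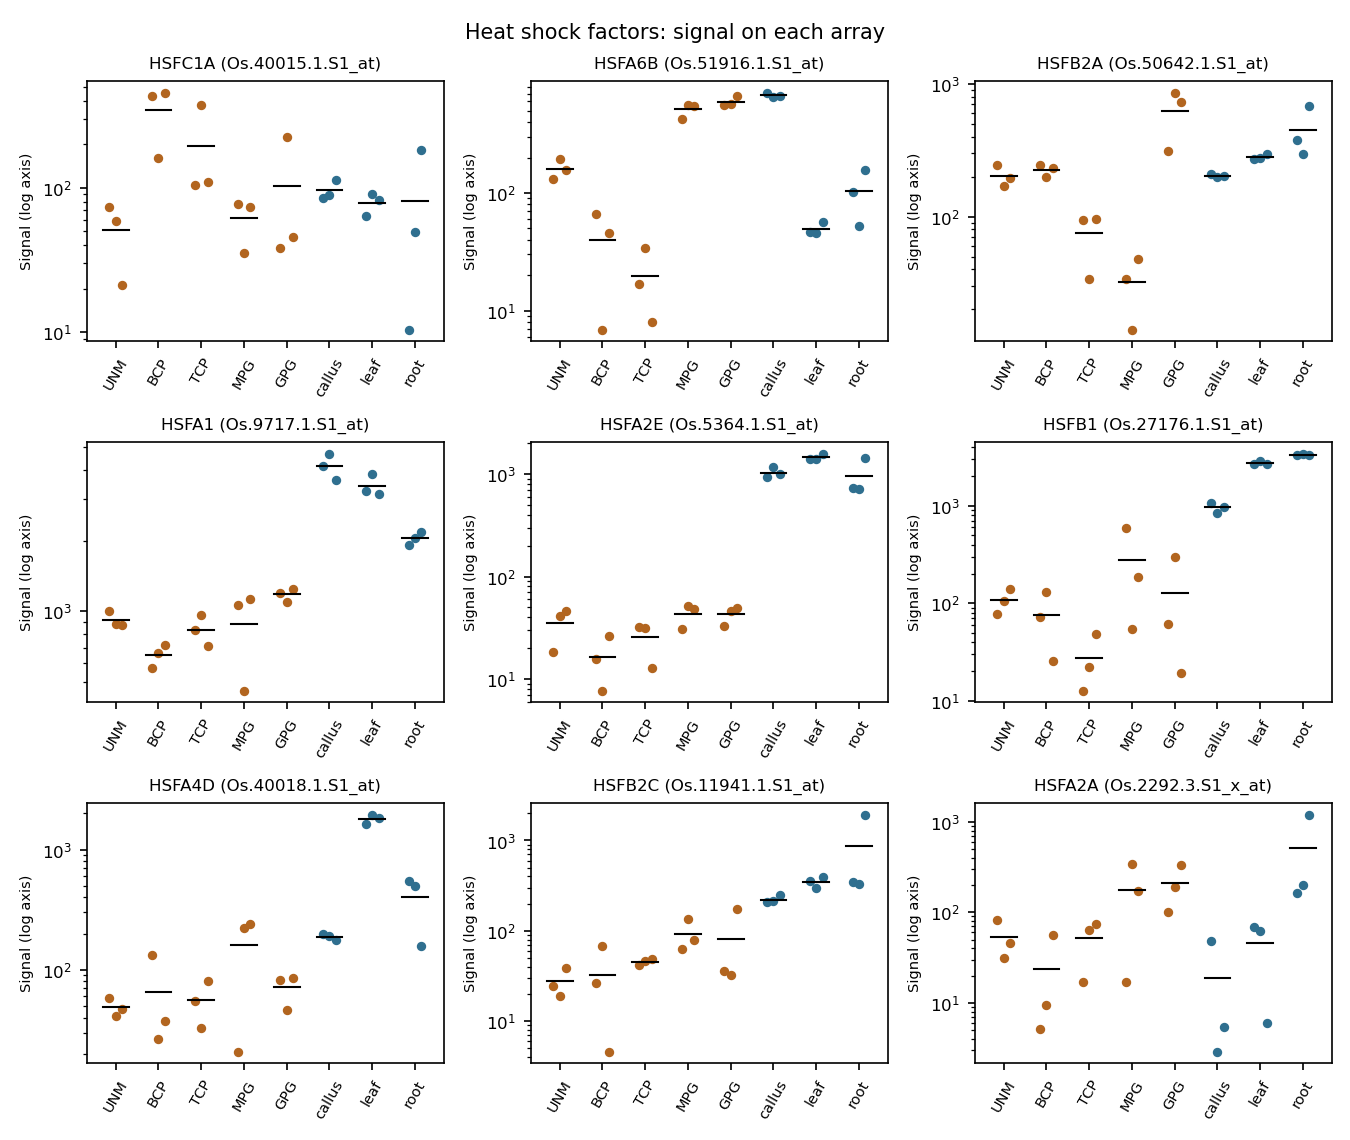
Signal on each array (points, log axis) and tissue mean (bar) for 9 factor probe sets, pollen stages in orange and sporophytic tissues in blue, 3 arrays each. HSFA1, HSFA2E and HSFB1 are lower on all pollen arrays than on all sporophytic arrays, HSFA6B drops at BCP and TCP and returns at MPGs, HSFB2A is highest in GPGs, and the last root array stands above the other root arrays for HSFA2A and HSFB2C.

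A few factors changed within pollen development. HSFC1A was the 1 member called higher in BCP: it gave at most 73.5 in UNMs, 429, 160 and 449 in BCP and 104, 372 and 110 in TCP, with at most 183 in the sporophytic tissues. The rise was 1.91 on the log2 scale (SE 0.49, adjusted p = 0.00703). HSFA6B gave 131, 194 and 156 in UNMs, 66.3, 6.9 and 45.7 in BCP, 17.0, 33.8 and 8.0 in TCP, 428, 563 and 552 in MPGs and 557, 570 and 668 in GPGs. It fell by 1.28 into BCP (SE 0.27, adjusted p = 0.00129), which dropped below the fold needed for a call without BCP replicate 2 or with an offset of 100, and rose by 3.03 into MPGs (SE 0.27, adjusted p = 1.39e-08), the 1 member rise from TCP to MPGs that was called under every scaling. The MPG and GPG arrays lay near the callus arrays (704, 658 and 664) and above leaf and root (46.1 to 158).

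HSFB2A, a class B factor, rose on germination in both of its probe sets. Os.50642.1.S1_at gave 246, 199 and 231 in BCP, 94.5, 33.9 and 95.6 in TCP, 34.1, 14.1 and 47.8 in MPGs and 313, 846 and 722 in GPGs, a change of -1.18 into TCP (SE 0.32, adjusted p = 0.00649) and a rise of 2.96 into GPGs (SE 0.32, adjusted p = 1.15e-05). Os.39876.1.S1_at gave 364, 390 and 804 in MPGs and 1400, 1255 and 1477 in GPGs, a rise of 1.41 (SE 0.37, adjusted p = 0.018) that was lost with equal medians, with hybridisation control scaling and without MPG replicate 1 or 2. The fall of Os.50642.1.S1_at into TCP was lost with an offset of 100 and without TCP replicate 2. HSFA3, which acts downstream of DREB2A in Arabidopsis, was the 1 factor called lower in GPGs. It gave 204, 358 and 153 in MPGs and 22.8, 18.6 and 212 in GPGs, so the groups overlapped, and its change of -1.33 (adjusted p = 0.031) was not called under any other scaling or without MPG replicate 2, GPG replicate 1 or GPG replicate 2.

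From TCP to MPGs 8 of the 28 factor probe sets rose as deposited, a share close to the 27.0% of all tested probe sets. With equal medians HSFA6B and HSFB2B were still called, after quantile normalization these and HSFA4B, and with hybridisation control scaling HSFA6B alone. HSFB2B, a negative regulator of drought and salt tolerance in rice, gave 21.7, 61.6 and 7.7 in TCP and 139, 383 and 162 in MPGs with its probe set Os.27716.2.S1_a_at, a rise of 1.74 (SE 0.41, adjusted p = 0.00184). HSFB1, HSFA2B, HSFB4B, HSFA4B and HSFA2C (Os.10942.1.S1_a_at) rose by 1.73, 1.34, 1.31, 1.06 and 1.39 and HSFB2A by 1.01, and of these calls that of HSFA4B alone was kept under any of the other scalings. HSFA4B had tissue means of 1196 in MPGs and 1358 in GPGs against 533 in TCP. The rise of HSFA4B and that of HSFB2A turned to a lower value with hybridisation control scaling.

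Between leaf and root 5 of the 28 factor probe sets were higher in leaf and 5 lower, against 11.6% and 15.4% of all tested probe sets, and 3 and 3 without root replicate 3. HSFA9 (Os.40020.1.S1_a_at), named after a factor of seed development in Arabidopsis and sunflower, gave 2338, 2143 and 1866 in leaf and 352, 353 and 461 in root, a difference of 2.31 (SE 0.47, adjusted p = 0.000503), with tissue means of 346 to 470 in UNMs, BCP, TCP, MPGs, GPGs and callus. HSFA4D, the gene of the rice spotted leaf mutant spl7, had leaf arrays at 1643, 1927 and 1829 and root arrays at 544, 500 and 159 (2.17 higher in leaf, SE 0.45, and 1.69 without root replicate 3). HSFB2C (Os.54707.1.S1_x_at) gave 174, 182 and 85.7 in leaf and 374, 436 and 910 in root, lower in leaf (-1.60, SE 0.33, adjusted p = 0.000534, and -1.24 without root replicate 3). HSFA2A (Os.2292.3.S1_x_at) gave 68.5, 62.0 and 6.0 in leaf, and its difference of -2.15 became -1.35 (adjusted p = 0.0868) without root replicate 3.

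Stage medians were also set against other arrays by a ratio to the highest single array and by the Z score of the study, in which the mean of the other arrays is subtracted and the rest divided by their SD. These rules named 11 of the 64 members as pollen-preferential, where 43.9% of all 57258 probe sets passed. They were HSP16.0, HSP16.6, HSP17.7 (Os.22730.2.S1_at), HSP17.8, both probe sets of HSP18.1 and of HSP21.9, HSP81-3 (Os.57460.1.S1_at), HSFB2B (Os.27716.1.S1_at) and HSFC1A. The rule had no filter on dim signals. HSP16.0 and Os.57460.1.S1_at were not called by the moderated F test (adjusted p = 0.0765 and 0.139). The brighter probe sets of HSP17.7 (-2.045) and HSP81-3 (-2.24, -1.38 and -2.31) were called lower in pollen than in sporophytic tissues. HSP18.1 had the highest ratios, 8.63 and 7.64, and was enriched in UNMs over all 21 other arrays. It was the 1 gene so named, with 2 of 64 probe sets against 3.85% of all. With equal medians 3 members were pollen-preferential. Without GPG replicate 1 the count of stage-enriched members was 4.

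Related genes were taken by name as well, in a list of 41 probe sets (40 tested) that holds 12 of PDIL genes, the protein disulfide isomerases, 7 of CLP genes, relatives of HSP101, 9 of BIP103 to BIP131, whose names match by letters only, and 13 of J-domain proteins, BIP1, BIP4, DREB2 factors, RAR1 and SGT1. From UNMs to BCP 3 of the 40 rose and 7 fell, against 6.11% and 8.19% of all tested probe sets. From BCP to TCP 2 rose and 16 fell, against 10.2% and 12.9% of all, and 8 of these falls were of PDIL probe sets. From TCP to MPGs 4 rose and 20 fell, against 27.0% and 11.9% of all, and 9 of these falls were of PDIL probe sets. Without BIP103 to BIP131 the counts at these last steps were 2 and 12, and 3 and 16.

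The HSP90 co-chaperones SGT1 and RAR1 fell by 1.97 and changed by -1.36 from BCP to TCP, and gave 0.45 and 0.05 from TCP to MPGs, which were not called. The J-domain genes, whose proteins assist HSP70, went both ways from TCP to MPGs, where DJC27 rose by 2.85 and DJB6 fell by 2.61. BIP1, an HSP70 chaperone of the endoplasmic reticulum, fell by 3.41 into MPGs (SE 0.27, adjusted p = 2.45e-09), and BIP4 fell by 3.66 into BCP yet was higher in pollen than in sporophytic tissues by 1.85. CLPB-C fell by 3.35 into MPGs after a rise of 1.10 into BCP. Of the 7 CLP probe sets 2 were higher in pollen than in sporophytic tissues and 0 lower: CLPC3 by 6.74 (SE 0.125) and CLPB-M by 1.21. Over all pollen against sporophytic arrays 6 of the 40 were higher and 7 lower, against 20.8% and 20.7% of all tested probe sets. The genes of the list named here were chosen after their values were seen.

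For 14 genes with several probe sets, 31 pairs could be compared over the 8 tissue means. The correlation on the log2 scale was at least 0.8 in 11 pairs and below 0 in 8, of which 6 involved a dim HSP81-3 probe set. A member gene with disagreeing probe sets is therefore described per probe set and not by their mean.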

How the data were processed

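Expression was measured on 24 Affymetrix rice arrays, 3 biological replicates for each of 8 tissues. The deposited intensity values are MAS5 signals on a linear scale, made by the authors with the GCOS software per the labels, with the 2% trimmed mean of every array at 500.1. No probe-level files or detection calls were used here, so precision rests on the number of arrays. Of 57381 probe sets 123 controls were left out. Gene names came from the platform annotation through the RefSeq table of assembly ASM3414082v1: 22436 probe sets had 1 gene, 95 several and 34727 none.

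Log2(signal + 50) was fitted with limma 3.58.1 (R 4.3.3), with 1 mean per tissue over all 24 arrays, for 47589 probe sets with a signal of at least 100 on 3 or more arrays. P-values were adjusted by Benjamini-Hochberg over all of them. The script was tested on simulated data. The Z rule and the thresholds followed the study's methods (ratio at least 2.0, Z at least 3.19 or 3.75). The text used here does not give the study's ratio equation, so the highest single array was taken as its denominator. Both were applied to all probe sets.

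The members and lists were chosen with earlier results of these data known. Signals on single arrays are given for, in each class and comparison, up to 2 called members with the largest rise and up to 2 with the largest fall, and for HSP101; array values of other members were chosen after seeing them. Alternatives were other offsets, filters, scalings and probe set choices, a replicate block, trend and robust shrinkage, and each array left out in turn. A list of genes by RefSeq description and a search for heat shock elements were not run here.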

Additional observations from a re-analysis of the deposited data

How the results depend on the processing

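Counts of called members changed by more than 1.5 times as follows. From TCP to MPGs the 16 higher members became 10 with an offset of 100, 5 with equal medians, 8 after quantile normalization, 1 with hybridisation control scaling and 9 with probe sets averaged per gene, and the 8 lower became 16 with hybridisation control scaling and 5 genes after averaging. From MPGs to GPGs the 5 higher became 1 with hybridisation control scaling and 3 genes after averaging. The 2 lower became 1 with an offset of 100, after quantile normalization or averaging, and 0 with equal medians or hybridisation control scaling. From BCP to TCP the 1 higher became 0 with an offset of 100 or without the _s_at and _x_at probe sets, and the 13 lower became 7 genes after averaging. Against sporophytic tissues the 0 higher became 2 with an offset of 16 and the 27 lower became 43 with hybridisation control scaling. Under that scaling 18792 of all 43950 tested probe sets were called lower. The 11 pollen-preferential members became 3 with equal medians, 7 after quantile normalization and 2 with hybridisation control scaling. The 2 stage-enriched members became 1 after quantile normalization or without the _s_at and _x_at probe sets, and 6 against the highest group mean. Averaging leaves fewer features to count, and for the other settings the cause was not tested.

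Leaving out 1 array at a time gave 0 to 1 higher and 10 to 15 lower from BCP to TCP, 4 to 8 higher and 1 to 3 lower from MPGs to GPGs, 0 to 2 higher against sporophytic tissues and 2 to 4 stage-enriched members. Among the members given with array values by the rule for naming, HSP101 alone changed direction (4 other rises from TCP to MPGs that turned with hybridisation control scaling are given above): from BCP to TCP to 0.057 with an offset of 16 and, over the fits without 1 array, to values from -0.529 (without BCP replicate 2) to 0.27 (without BCP replicate 3), with 0.21 without BCP replicate 1 and 0.14 without TCP replicate 2, from TCP to MPGs to -0.11 with hybridisation control scaling, from MPGs to GPGs to -0.14 without MPG replicate 3 (up to 0.897, without MPG replicate 1), and against sporophytic tissues to 0.00 (-0.003) with equal medians and -0.56 with hybridisation control scaling.

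Replicate numbers did not pair the arrays: r between deviations of same-numbered arrays exceeded 0.1 in 4 of 15 pairs (-0.05 to 0.15). With the replicate number as a block, 17 members were higher and 8 lower from TCP to MPGs and 27 were lower against sporophytic tissues, and no count of called members moved by over 1.5 times. Dim members (under 200 on every array for 2 of them) limit what falls can be measured.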
